A study of Mus musculus with 15 samples.

Results

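The genes described here are 36 mouse genes listed for mitochondrial fatty acid and ketone body oxidation. They were chosen by symbol for their place in or beside the pathway, at a time when earlier results of these data were known. The list does not say where in the cell each product acts. All 36 were matched to a row of the count table, which holds 54752 genes. They cover the carnitine shuttle (4 genes), the acyl-CoA dehydrogenases (5), the later steps of the oxidation spiral with its auxiliary enzymes (7), electron transfer from the spiral (3), long-chain acyl-CoA synthetases (4), medium-chain acyl-CoA synthetases (4), acyl-CoA thioesterases (3), ketone body use (3) and regulators (3).

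Fatty acids are first joined to coenzyme A by acyl-CoA synthetases. Long chains then enter the mitochondrion as carnitine esters, while medium chains can be activated inside it by the ACSM enzymes. Each turn of the spiral removes acetyl-CoA and passes electrons to the respiratory chain through the electron transfer flavoprotein. Ketone bodies made by the liver are turned back into acetyl-CoA by Bdh1, Oxct1 and Acat1. The proximal tubule of the kidney is known for its dense mitochondria and for burning fatty acids to drive transport, and the distal convoluted tubule is also rich in mitochondria. PPAR alpha, encoded by Ppara, is the receptor that turns on many of these genes, and Ppargc1a encodes a coactivator of mitochondrial genes.

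RNA came from tubules dissected from kidneys of wild-type mice and of mice lacking claudin-10a, the tight junction protein made from Cldn10 (labelled WT and Cldn10a KO). The 15 libraries formed 4 groups: proximal tubule of wild type (n = 4, replicates 1, 2, 3 and 6) and of knockout (n = 3, replicates 4, 5 and 7), and distal convoluted tubule of wild type (n = 4, replicates 1 to 4) and of knockout (n = 4, replicates 5 to 8). One kidney gave a pool of 10 proximal or about 20 distal tubules, and the labels give no age, sex, strain or promoter. Whether each library was a separate animal is not stated, so the p-values speak of the spread among libraries, which may be technical.

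Libraries held 28729339 to 51764746 counts, of which 57.8 to 71.6% were mitochondrial ribosomal RNA and 8.02 to 19.7% came from nuclear protein-coding genes. The 36 genes together had 30756 to 92883 counts per library. Cldn10 had 541 to 1514 counts in the wild-type proximal libraries and 0 in each knockout proximal library. In distal tubule it had 3 to 22 counts in wild-type libraries and 0, 12, 24 and 0 in knockout replicates 5 to 8, so it did not tell the genotypes apart there and checks none of the distal labels. The counts do not separate isoforms. Markers of early proximal tubule summed to 4000 to 5020 CPM (counts per 1000000 after scaling) in proximal and 8.53 to 17.3 CPM in distal libraries. Markers of distal convoluted tubule summed to 2500 to 4140 CPM in distal and 85.5 to 174 CPM in proximal libraries, the latter nearly all Fxyd2. The distal libraries also held 792 to 1290 CPM of thick ascending limb markers, such as Umod and Egf. In pooled tubules, fewer cells of a type and less RNA per cell cannot be told apart.

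The promoters of 31 of the 36 genes were found in the RefSeq table (GRCm38.p6), and the 250 bases before each gene's start were searched on both strands. The first motif was the direct repeat of AGGTCA with 1 base of any kind (N) between its copies, the kind of element to which PPAR alpha binds with its partner Rxra, and the second was TCAAGGTCA, the kind of element bound by estrogen-related receptors, which contains the same AGGTCA. They are shown because PPAR alpha and its coactivator are among the genes measured. None of the 31 promoters held an exact copy of either motif, against 0.0407% and 0.422% of all promoters. With 1 mismatch allowed, the direct repeat was found in 1 of 31 (3.23%), Acot12, against 0.566% of all 27025 promoters, and the second motif in 2 of 31 (6.45%), Acsl5 and Bdh1, against 7.27%. The stretches are written along the gene's strand with the match in capitals. Distances are from the start in the RefSeq table, and the Acsl5 stretch lies inside the gene as GENCODE M21 draws it, whose first start is further upstream. A match is a description of letters only.
Acot12 (chr13:91741403-91741431, + strand, match 110 to 98 bases before the start): taggacccTGACCTCTCACCTcctaagca
Acsl5 (chr19:55253119-55253143, + strand, match 242 to 234 bases before the start): tgaagtctTCACCTTGAacttcctg
Bdh1 (chr16:31422196-31422220, + strand, match 93 to 85 bases before the start): ggtcaaatTCACGGTCAgtttaagc

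Levels were first set side by side per kilobase of exon (RPKM, from the scaled counts), the only scale on which genes can be compared with each other. In wild-type proximal tubule the most abundant member was Acsm2, an activator of medium-chain acids, at 107 RPKM. It was followed by Oxct1, the transferase that activates acetoacetate, at 50.3 ± 8.2 RPKM, by the thioesterase Acot13 at 31.7 RPKM and by the thiolase Acaa2 at 28.6 RPKM. In wild-type distal tubule Oxct1 led with 80.7 RPKM. Etfa, a subunit of the electron transfer flavoprotein, followed with 22.2 RPKM, Acot13 with 18.5 RPKM and Acat1, the ketone body thiolase, with 15.6 RPKM.

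Between 1 and 10 RPKM lay 23 members in wild-type proximal and 22 in wild-type distal tubule, with 7 members above 10 RPKM in each. The median member stood at 5.57 RPKM in wild-type proximal and 3.32 RPKM in wild-type distal tubule. Under 1 RPKM were 6 members in proximal tubule (Cpt1b, Bdh1, Pdk4, Acsl5, Acsl3 and Slc25a20) and 7 in distal tubule (Cpt1b, Acsm1, Acsm2, Acsm3, Acsm5, Acot12 and Ppara). Cpt1b, the muscle form of the carnitine palmitoyltransferase that starts the shuttle, had 0 counts in all 7 proximal libraries and 0 to 0.203 CPM in the distal ones. It passed no filter and 81.4% of its exon bases are shared with the readthrough gene Gm44502. The liver form Cpt1a had 6.63 RPKM in wild-type proximal and 9.98 RPKM in wild-type distal tubule.

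**Figure D1:**
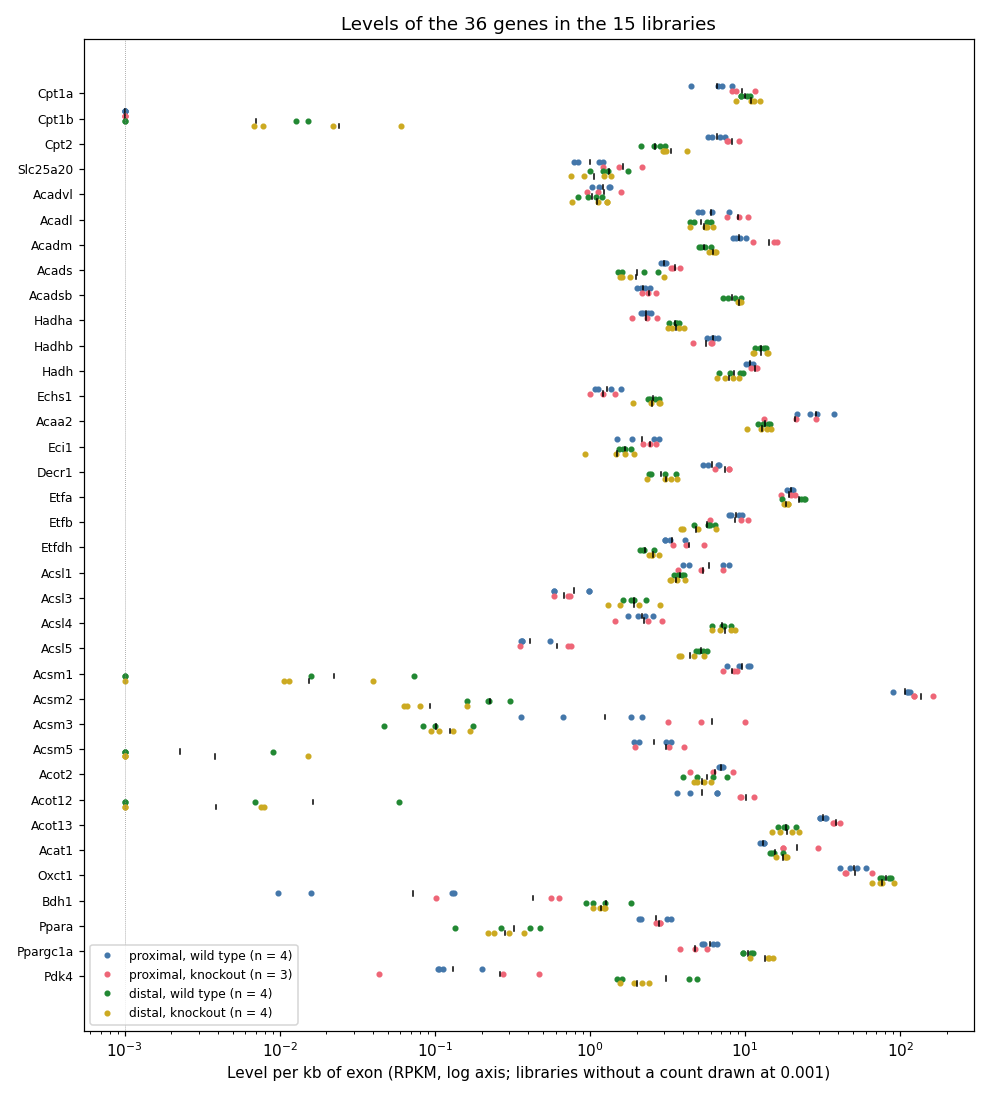
Level of each of the 36 genes per kilobase of exon (x axis, RPKM, log scale) in each of the 15 libraries, coloured by group, with a black bar at each group's mean; libraries without a count are drawn at 0.001. Acsm2 stands highest in proximal tubule (107 RPKM in wild type) and near 0.227 RPKM in wild-type distal tubule, while 16 of the 35 other genes have wild-type means between 1 and 10 RPKM in both segments and 13 in one segment only.

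The spread between replicates was moderate for most members. Among members with a mean of at least 1 CPM, the median coefficient of variation was 14.5% in wild-type proximal (33 members), 18.6% in knockout proximal (34), 11.4% in wild-type distal (31) and 15% in knockout distal tubule (30). The most variable members in these groups were Acsm3 in wild-type proximal (69.6%), Bdh1 in knockout proximal (66.7%), Pdk4 in wild-type distal (58.1%) and Acsl3 in knockout distal tubule (34.6%). The steadiest were Acot2, Ppara, Hadha and Acadsb, at 2.64%, 3.27%, 6.01% and 2.17% in the same order.

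The first comparison asked how the 2 segments of wild-type kidney differ in these genes. Of 35 members tested, 29 differed (82.9%), where 48.7% of all 13616 genes did. Of these, 16 were higher in proximal tubule (45.7% of members, 23.6% of all genes) and 13 were lower (37.1% of members, 25.1% of all genes). Among those higher, Acsm1, Acsm5 and Acot12 passed the filter through the proximal libraries alone, which fixed their direction. The median log2 difference was 0.32 over the members and −0.0229 over all genes. The split ran within most roles: medium-chain activation, medium-chain dehydrogenation and Ppara were on the proximal side, while most long-chain synthetases, the trifunctional protein and ketone body use were on the distal side.

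The clearest group was the 4 medium-chain acyl-CoA synthetases, all higher in proximal tubule. Acsm2 had 836, 821, 852 and 670 CPM in wild-type proximal replicates 1, 2, 3 and 6, and 1.21, 1.62, 1.65 and 2.25 CPM in distal replicates 1 to 4. Every proximal library was far above every distal one, by a fitted 460-fold, and the log2 difference was 8.85 ± 0.22 (SE, limma adjusted p = 5.38e-14). The 4 genes lie in 1 cluster on chromosome 7 (GRCm38, 119519463 to 119787513, + strand) and are related in sequence, so reads could in part be shared among them.

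Acsm1 had 22.7, 19.9, 23.6 and 16.7 CPM in the wild-type proximal libraries (replicates 1, 2, 3 and 6) and 0 to 0.16 CPM in the distal ones, 4040 against 8 counts in all. Acsm5 had 11.8, 7.27, 7.92 and 12.6 CPM against 0 to 0.0345 CPM, 1894 against 1 count. Both were nearly confined to proximal libraries among these 8. Corrected for library depth, their count ratios were 413 (95% counting interval 209 to 957) for Acsm1 and 1550 (278 to 61200) for Acsm5, intervals that cover counting error only. Of the 8 distal Acsm1 counts 7 were in replicate 2, and without it the ratio was 2390 (429 to 94400), while the 1 distal Acsm5 count was in replicate 1. The limma test across all genes called both (adjusted p = 4.87e-08 and 1.16e-07). Since both passed the filter through the proximal libraries alone, their direction was fixed before that test.

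Acsm3 was lower and far more variable, with 3.28, 9.01, 1.78 and 10.7 CPM in the proximal libraries (replicates 1, 2, 3 and 6). Its distal replicates 1 to 4 had 0.862, 0.412, 0.232 and 0.492 CPM. The groups did not overlap, and the log2 difference was 3.39 ± 0.88 (SE) with an adjusted p of 0.00417 by limma. Of its exon bases, 39.7% are shared with Eri2 on the other strand, and the strand setting of the counting is not given in the sources used here.

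The thioesterase Acot12, which splits acetyl-CoA, had 14.6, 21.9, 11.9 and 21.6 CPM in proximal replicates 1, 2, 3 and 6, and 0, 0.0229, 0 and 0.193 CPM in distal replicates 1 to 4. That is 3339 against 10 counts, a depth-corrected ratio of 273 (95% counting interval 148 to 570, limma adjusted p = 1.01e-06). Of the 10 distal counts 9 were in replicate 4, and without it the ratio was 1920 (345 to 76000). Distal libraries therefore held Acot12 only in traces. Like Acsm1 and Acsm5, it passed the filter through the proximal libraries, which fixed its direction. In wild-type distal tubule the levels of Acsm1, Acsm2, Acsm5 and Acot12 were 0.235%, 0.211%, 0.0871% and 0.308% of their proximal levels, and early proximal markers stood at 0.272% of their proximal sum. Acsm3 and Ppara stood at 8.06% and 12.2%, and markers of the straight proximal tubule at 6.89%. Their distal sum was mostly Ghr, Atp11a and Acy3 (19.2, 8 and 2.94 CPM). Slc7a13, Slc5a8, Slc22a30 and Aadat had 0.0275, 0.191, 0.0533 and 0.044 CPM there, against 19.3, 25.8, 19.7 and 15.7 CPM in proximal libraries. Cyp7b1 and Slc22a7 were barely counted in either segment. Acot13 was higher in proximal tubule by 0.77 ± 0.12, and the log2 difference of Acot2 was 0.35 with an adjusted p of 0.091. Acot2 has close relatives beside it, among which reads may be split.

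Ppara had 12, 7.96, 8.19 and 12.7 CPM in wild-type proximal replicates 1, 2, 3 and 6, and 1.59, 1.03, 0.516 and 1.82 CPM in distal replicates 1 to 4. The receptor was thus higher in every proximal library (log2 difference 3.13 ± 0.35, SE, limma adjusted p = 1.36e-06). The coactivator Ppargc1a went the other way, with 38.9 ± 4.18 CPM in proximal and 68.9 ± 5.51 CPM in distal tubule (SD, n = 4 each; log2 difference −0.84). Pdk4 encodes a kinase that shuts pyruvate out of oxidation. It had 0.372, 0.394, 0.701 and 0.364 CPM in proximal replicates 1, 2, 3 and 6, and 5.65, 5.21, 17.3 and 15.4 CPM in distal replicates 1 to 4. Distal replicates 3 and 4 held far more Pdk4 than 1 and 2, yet all stood above the proximal libraries (−4.41 ± 0.70, limma adjusted p = 5.83e-05).

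All 3 genes of ketone body use were lower in proximal tubule. Bdh1, the hydroxybutyrate dehydrogenase that starts ketone body use, had 0.062, 0.518, 0.0379 and 0.5 CPM in proximal replicates 1, 2, 3 and 6, and 3.69, 4.05, 4.87 and 7.13 CPM in distal replicates 1 to 4. Its log2 difference was −4.88 ± 0.66 (SE, limma adjusted p = 1.18e-05). Oxct1 had 186 ± 30.4 CPM in proximal and 299 ± 23.2 CPM in distal tubule (SD, n = 4 each), a log2 difference of −0.71. Acat1 differed by −0.27 (adjusted p = 0.031), from 48.8 ± 1.63 to 58.5 ± 5.13 CPM.

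Of the long-chain synthetases, Acsl5, Acsl4 and Acsl3 were lower in proximal tubule and Acsl1 was higher. Acsl5 had 1.78, 1.74, 1.76 and 2.71 CPM in proximal replicates 1, 2, 3 and 6, and 26, 23.4, 27.8 and 24.4 CPM in distal replicates 1 to 4. The gap was far wider than the spread in either group (log2 difference −3.71 ± 0.18, SE, limma adjusted p = 1.54e-10). Acsl4, which prefers polyunsaturated chains such as arachidonate, differed by −1.75 and Acsl3 by −1.33. Acsl1 differed by 0.56 (adjusted p = 0.0216), with proximal libraries at 41.5 to 82 CPM that overlapped the distal range of 36.7 to 42.3 CPM.

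In the carnitine shuttle, Cpt2, which frees the chain inside the mitochondrion, was higher in proximal tubule by 1.28 ± 0.15, and Cpt1a was lower (log2 difference −0.64). The carrier Slc25a20 had a difference of −0.39 that did not pass (adjusted p = 0.122). Among the dehydrogenases, which take the first electrons, the medium-chain enzyme Acadm (0.73) and the short-chain enzyme Acads (0.57) were higher. The long-chain enzymes Acadl and Acadvl did not pass, with differences of 0.20 and 0.21, and 42.9% of the exon bases of Acadvl are shared with Dvl2 on the other strand.

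Acadsb, which serves short branched chains from isoleucine, was the dehydrogenase with the opposite pattern. It had 17.4, 16.1, 15.4 and 14.5 CPM in proximal replicates 1, 2, 3 and 6, and 55.7, 52, 67.2 and 62.1 CPM in distal replicates 1 to 4. The groups stood well apart (log2 difference −1.91 ± 0.12, SE, limma adjusted p = 1.59e-09).

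In the later steps, both subunits of the trifunctional protein for long chains, Hadha (−0.64) and Hadhb (−1.05), and the short-chain hydratase Echs1 (−1.01) were lower in proximal tubule. Hadh (0.35), which oxidises shorter hydroxyacyl chains, the thiolase Acaa2 (1.06) and Decr1 (1.11), needed for unsaturated chains, were higher. Eci1, an isomerase for unsaturated chains, did not pass at 0.32. For electron transfer, Etfb (0.59) and Etfdh (0.55) were higher and Etfa did not pass (−0.16); 58.2% of the exon bases of Etfb are shared with Gm45233 and Mir7051 on the same strand. Summed over all 36 genes the level was 1660 ± 106 CPM in wild-type proximal and 1050 ± 11.4 CPM in wild-type distal tubule. Without Acsm2 it was 869 ± 29.9 and 1050 ± 11.9 CPM (SD, n = 4 each), so the order of the CPM sums rests on that gene. CPM sums also give more weight to genes with more exon bases, here from 0.74 kb (Acot13) to 10.48 kb (Acsl1). Sums per kilobase were not made, so no order of total levels is drawn from these.

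The same comparison in knockout kidneys used other libraries. Of 35 members, 28 differed (80%, against 40.6% of all 13834 genes). Of these, 17 were higher in proximal tubule (48.6%, against 20.4% of all genes) and 11 were lower (31.4%, against 20.2%). Here too Acsm1, Acsm5 and Acot12 passed the filter through the proximal libraries, which fixed their direction. Both genotypes called 26 members, 15 higher and 11 lower, which is 89.7% of the wild-type and 92.9% of the knockout calls. Only wild type called Cpt1a, Acsl1 and Acat1, and only knockout called Acadl and Eci1; the test of the difference between genotypes called none of these.

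The largest knockout differences were those of Acsm2 and Acot12. Acsm2 had 905, 1210 and 911 CPM in knockout proximal replicates 4, 5 and 7, and 0.472, 0.494, 0.597 and 1.2 CPM in distal replicates 5 to 8 (log2 difference 10.6 ± 0.36, SE). Acot12 had 4001 counts in proximal and 2 in distal libraries, a depth-corrected ratio of 2570 (95% counting interval 711 to 21200). Acadsb differed by −1.94 and Hadhb by −1.17, close to their wild-type values. Bdh1 differed by −1.88, and its knockout proximal level was 36.8% of its distal level, against 5.68% in wild type. The sum of the 8 distal convoluted markers stood at 4.56% of its distal level in knockout proximal libraries and at 3.99% in wild-type ones. Most of that sum was Fxyd2. Single markers went both ways: Slc12a3 stood at 0.0025% in knockout and 0.04% in wild type, while Wnk4 had 2.62 and 2.33 CPM. The knockout Slc12a3 values were 0 to 0.0557 CPM. The part of distal cells in the Bdh1 value was not tested.

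**Figure D2:**
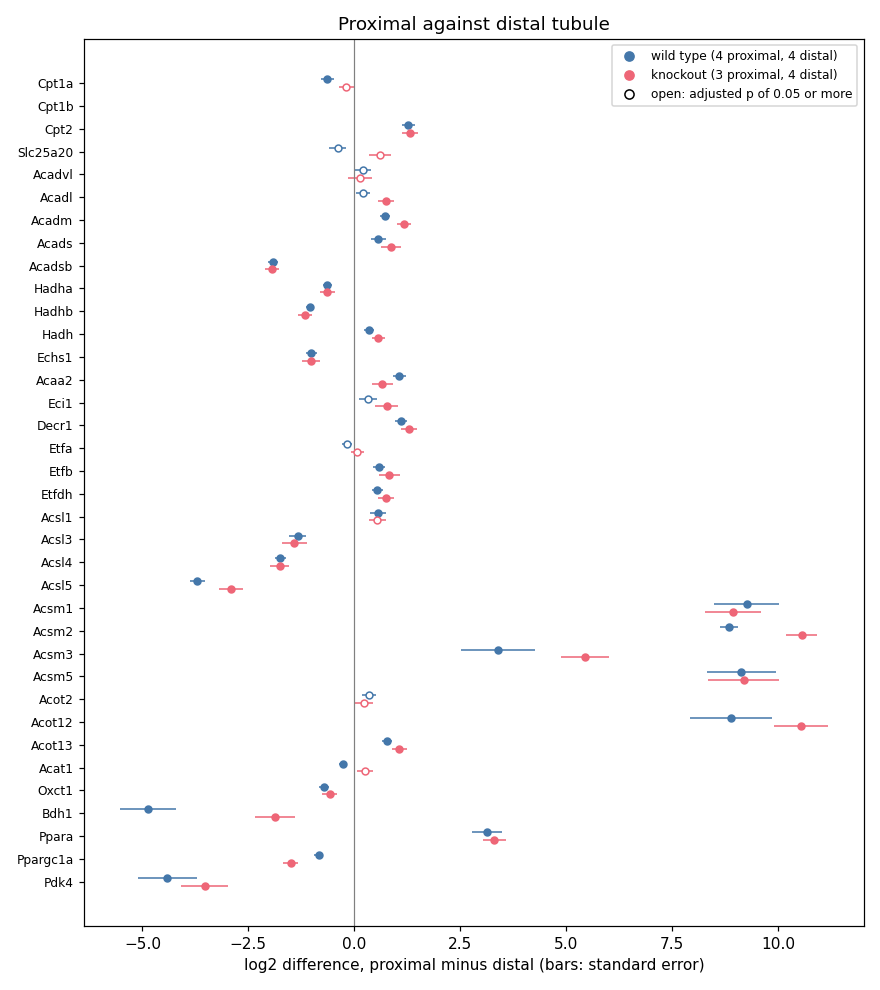
Log2 difference between proximal and distal tubule for each gene (x axis, proximal minus distal; bars, standard error), in wild type (blue) and knockout (red); open points did not pass an adjusted p of 0.05. Acsm1, Acsm2, Acsm5 and Acot12 lie far to the right in both genotypes, and Bdh1, Pdk4 and Acsl5 to the left.

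The second comparison asked whether loss of claudin-10a went with a change of these genes in proximal tubule. None of the 35 members tested was called by limma, where 0.166% of all 13229 genes were. At an unadjusted p under 0.05 there were 8 members with a higher value in knockout (22.9%, against 4.21% of all genes) and 0 with a lower one (3.17% of all genes). The knockout libraries all stood above the wild-type ones for 9 members (4.44% of all genes) and all below for 0 (3.54% of all genes). The median log2 difference was 0.18 over the members and −0.0145 over all genes, with 22 of 35 above 0.

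Acsm3 had the smallest p. It had 3.28, 9.01, 1.78 and 10.7 CPM in wild-type replicates 1, 2, 3 and 6 and 25.7, 49.4 and 15.6 CPM in knockout replicates 4, 5 and 7. All knockout libraries were above all wild-type libraries, and within each genotype the values differed several-fold. The log2 difference was 2.49 ± 0.51 (SE, limma adjusted p = 0.0891).

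Acot12 had 14.6, 21.9, 11.9 and 21.6 CPM in wild-type libraries and 38, 31.1 and 30.5 CPM in the knockout ones, in the same order of replicates. The groups did not overlap (log2 difference 0.96 ± 0.22, SE, limma adjusted p = 0.135). Acadm, the medium-chain dehydrogenase, had 32.7, 36.2, 34.1 and 39.6 CPM in wild-type libraries and 60, 62.5 and 44.1 CPM in the knockout ones. It too did not overlap, with replicate 7 nearest to the wild-type libraries (0.61 ± 0.17, limma adjusted p = 0.242).

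The other 5 members under an unadjusted p of 0.05 are given because of that p, after their values were seen. Acat1 had 46.4, 49.9, 49.9 and 48.9 CPM in wild-type libraries and 66.3, 111 and 66.2 CPM in the knockout ones (0.68 ± 0.18, limma adjusted p = 0.242). Its wild-type libraries were nearly level, and replicate 5 was the highest knockout library. Cpt1a had 54, 51.4, 34.5 and 62.8 CPM against 88.7, 63 and 66.9 CPM, groups that barely missed each other (0.53 ± 0.21). Slc25a20 (0.69 ± 0.24) and Acadl (0.59 ± 0.19) had groups that touched or overlapped, at 3.83 to 5.84 against 5.84 to 10.5 CPM and 9.91 to 15.8 against 15.3 to 20.8 CPM. Bdh1 had 0.062, 0.518, 0.0379 and 0.5 CPM in wild-type libraries and 2.45, 2.19 and 0.396 CPM in the knockout ones. Replicate 7 lay within the wild-type range, and the log2 difference of 2.89 ± 1.01 had an adjusted p of 0.502.

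In the other direction, the 3 members with the smallest p were Acaa2, Ppargc1a and Acsm1. Acaa2 had 39.6, 43.9, 56.9 and 32.7 CPM in wild-type libraries and 32.2, 20 and 43.7 CPM in the knockout ones (−0.49 ± 0.25, SE, limma adjusted p = 0.723). Ppargc1a had 43.8, 35.9, 35 and 41 CPM against 25.2, 37.4 and 31.5 CPM (−0.33 ± 0.17, adjusted p = 0.73). Acsm1 had 22.7, 19.9, 23.6 and 16.7 CPM against 19.4, 18.5 and 15.6 CPM (−0.23 ± 0.17, adjusted p = 0.818). The groups overlapped for each of these 3.

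By role, the median log2 differences were 0.53 for the 3 tested genes of the carnitine shuttle, 0.21 for the dehydrogenases and 0.68 for ketone body use. They were −0.0177 for the later steps, −0.042 for electron transfer and −0.0671 for the long-chain synthetases. Oxct1, the most abundant ketone gene, averaged 186 ± 30.4 CPM over the 4 wild-type libraries and 191 ± 46 CPM over the 3 knockout ones (SD). Ppara had 10.2 ± 2.49 and 10.7 ± 0.35 CPM, a log2 difference of 0.0872. The trifunctional subunits Hadha and Hadhb differed by −0.0177 and −0.17, and Acsm2 by 0.32 with an adjusted p of 0.69.

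Markers of the straight proximal tubule moved with genotype in the same libraries. Their sum over 9 genes was 317, 398, 511 and 542 CPM in wild-type replicates 3, 1, 2 and 6, and 907, 940 and 1010 CPM in knockout replicates 4, 5 and 7. Of the 8 tested, 8 lay above 0, 7 had an unadjusted p under 0.05 and 2, Atp11a and Acy3, were called higher; the median log2 difference was 1.37. Early proximal markers summed to 4000 to 5020 CPM in wild-type libraries and 4080 to 4520 CPM in the knockout ones, with 7 of 8 below 0, 4 of them at an unadjusted p under 0.05, 0 called and a median log2 difference of −0.357. Endothelial markers summed to 11.6 to 23.5 and 19.7 to 35.3 CPM, with 9 of 9 above 0, 3 of them at an unadjusted p under 0.05, and 0 called. In the wild-type libraries in the order 3, 1, 2 and 6, Acsm3 had 1.78, 3.28, 9.01 and 10.7 CPM and Acot12 11.9, 14.6, 21.9 and 21.6 CPM. Bdh1 had 0.0379, 0.062, 0.518 and 0.5 CPM in that order. Acsm3, Acot12 and Bdh1 were thus lower in replicates 3 and 1 than in 2 and 6, as the straight markers were. Acadl followed the same order with 9.91, 10.6, 12.2 and 15.8 CPM, and Acadm had 34.1, 32.7, 36.2 and 39.6 CPM. Cpt1a (34.5, 54, 51.4 and 62.8 CPM) and Slc25a20 (3.83, 5.58, 4.06 and 5.84 CPM) did not split in this way. Acat1 was nearly level across the 4. Among the knockout libraries the order differed: replicate 7 had the highest marker sum and the lowest Acsm3, Acot12, Bdh1 and Acadl. Acy3 alone gave 180 to 272 CPM of the sum in wild-type and 437 to 640 CPM in knockout libraries. The order of the libraries without Acy3 was not examined. The part of this marker difference in the members' values was not tested.

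The calls turned on the fit. One fit of all 15 libraries called 4 members higher (Acsm3, Acot12, Acadm and Acat1), where it called 0.805% of all genes. No filter called 2 members and 0.315% of all genes, and the fit without replicates 6 and 7 called 1 member, Acsm3, and 0.147% of all genes (20 of 13562). Those 2 libraries, 1 of each genotype, carry column numbers of a lower series than the other 13, and without them the log2 difference of Acsm3 was 3.26 (adjusted p = 0.02) and that of Bdh1 4.29. The authors' deposited table, whose sign was read from Cldn10 (log2 fold change −12.2), listed 4 of 35 members with an adjusted p under 0.05, where 136 of 14748 genes (0.922%) had one. In the authors' deposited table these were Acot12 (0.91, adjusted p = 0.0133), Acat1 (0.72, 0.0362), Acadm (0.63, 0.0497) and Bdh1 (2.57, 0.0497), and Acsm3 had 2.27 with an adjusted p of 0.158.

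**Figure D3:**
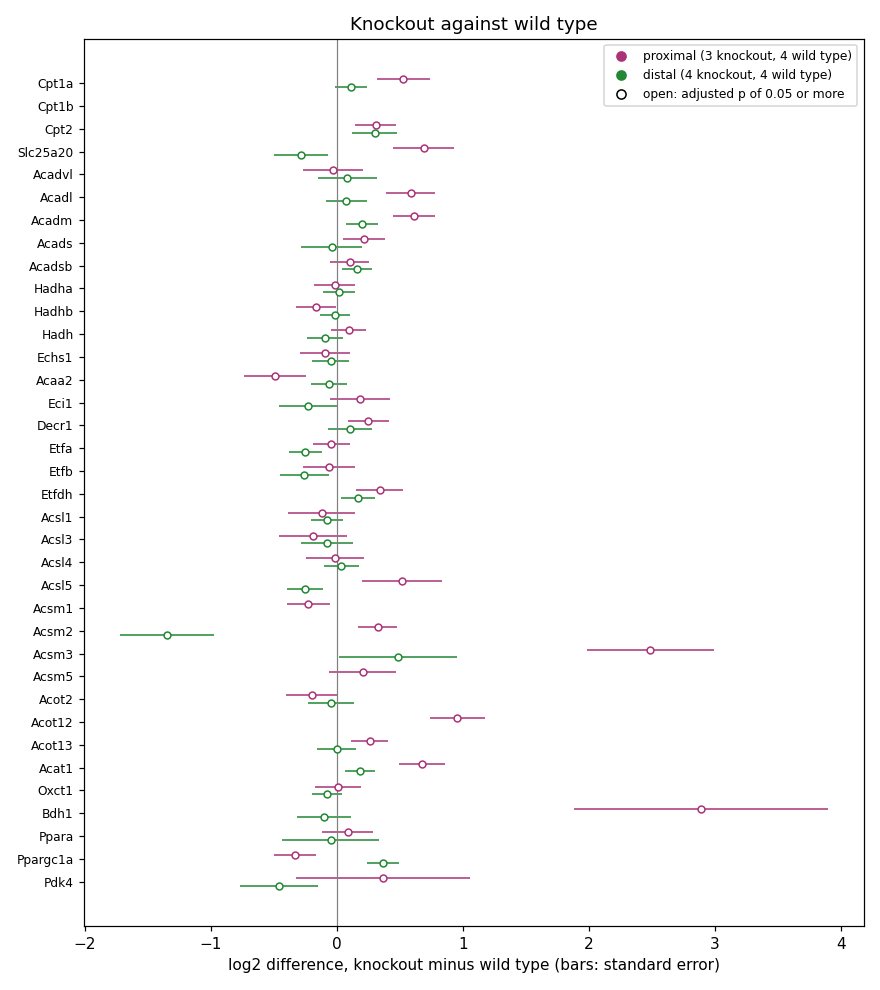
Log2 difference between knockout and wild type for each gene (x axis, knockout minus wild type; bars, standard error), in proximal tubule (purple) and distal tubule (green); every point is open, since none passed an adjusted p of 0.05. In proximal tubule Bdh1 (2.89) and Acsm3 (2.49) lie farthest to the right, and in distal tubule Acsm2 (−1.35) farthest to the left.

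**Figure D4:**
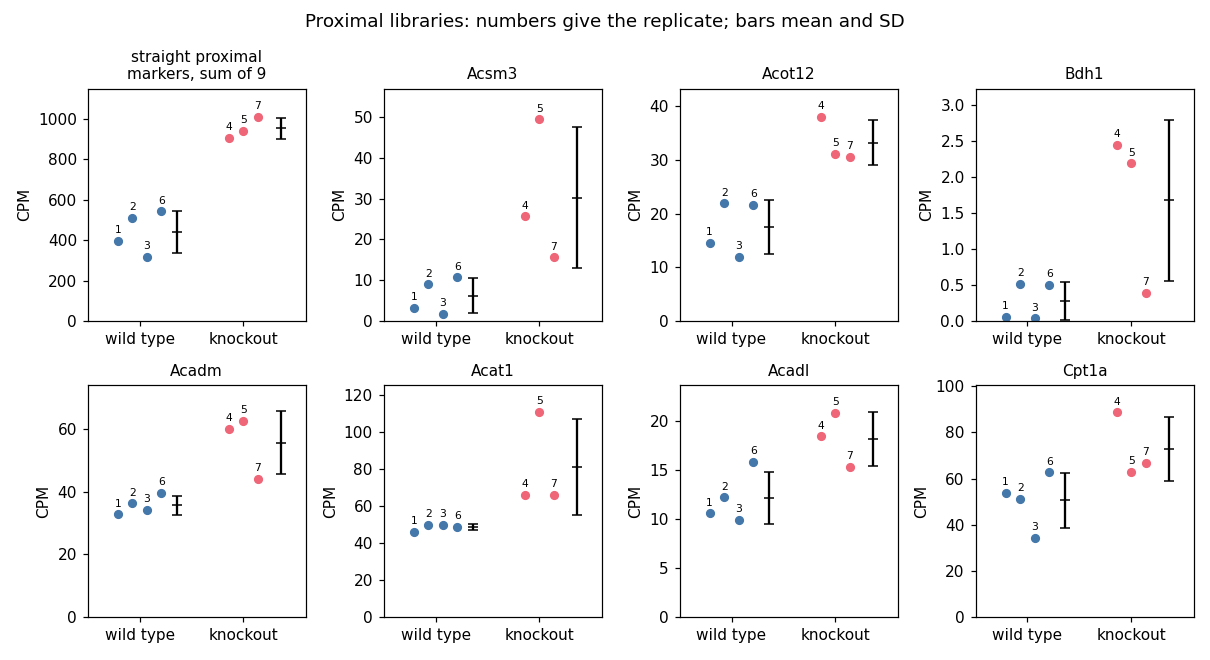
CPM of the summed straight proximal markers and of 7 genes in each proximal library (y axis from 0; numbers, replicates; bars, mean and SD), wild type (blue, n = 4) and knockout (red, n = 3). Acsm3, Acot12, Acadm, Acat1 and Cpt1a do not overlap between genotypes, nor do the markers (317 to 542 against 907 to 1010 CPM).

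In distal tubule, the same question gave 0 called members of 32 tested, where 0% of all 12968 genes were called by limma. At an unadjusted p under 0.05 there was 1 member higher in knockout, Ppargc1a (3.55% of all genes), and 1 lower, Acsm2 (3.57% of all genes). Groups did not overlap for 0 members higher (2.01% of all genes) and for 1 lower (1.81% of all genes). The median log2 difference was −0.0435 over the members and −0.00613 over all genes. Cpt1b, Acsm1, Acsm5 and Acot12 did not pass the filter there.

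Acsm2 had 1.21, 1.62, 1.65 and 2.25 CPM in wild-type replicates 1 to 4 and 0.472, 0.494, 0.597 and 1.2 CPM in knockout replicates 5 to 8. The groups just failed to touch, at levels that are traces of the proximal ones (log2 difference −1.35 ± 0.38, SE, limma adjusted p = 0.661). Early proximal markers in these libraries summed to 10.9 to 15.8 CPM in wild-type libraries and 8.53 to 17.3 CPM in the knockout ones; their part in the Acsm2 value was not tested.

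Ppargc1a had 74.7, 64.1, 64.3 and 72.6 CPM in wild-type libraries and 93.5, 70.7, 99.7 and 92.8 CPM in the knockout ones, in the order of replicates. Of the knockout libraries 3 were above all wild-type libraries and replicate 6 was within their range (0.37 ± 0.13, SE, limma adjusted p = 0.669). Etfa had 44.5, 44.2, 42.5 and 31.5 CPM against 34.5, 34.8, 32.7 and 33.1 CPM. Wild-type replicate 4 was the lowest of all 8 and the knockout libraries were nearly level (−0.25 ± 0.13, adjusted p = 0.695).

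Acsl5 had 26, 23.4, 27.8 and 24.4 CPM in wild-type libraries and 18.8, 26.3, 18.3 and 22.7 CPM in the knockout ones (−0.25 ± 0.14, limma adjusted p = 0.703). Cpt2 had 5.07, 6.72, 6.22 and 7.3 CPM against 10.1, 7.44, 7.09 and 7.13 CPM, where replicate 5 alone was far above the rest (0.30 ± 0.18, adjusted p = 0.732). Acat1 had 57.8, 65.8, 56.3 and 54 CPM against 68.9, 59.4, 67.7 and 69.4 CPM (0.18 ± 0.12, adjusted p = 0.758). All 3 had overlapping groups. The ketone gene Oxct1 averaged 299 ± 23.2 CPM in wild-type libraries against 284 ± 37.8 CPM in knockout, and Acadsb 59.2 ± 6.77 and 66 ± 1.43 CPM (SD, n = 4 each).

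Thick ascending limb markers summed to 792 to 1290 CPM in wild-type libraries, against 863 to 1190 CPM in knockout, with 5 of 6 above 0 and 0 called. Endothelial markers summed to 50 to 66.6 CPM in wild-type libraries and 41.2 to 46.2 CPM in the knockout ones, with 9 of 9 below 0 and 0 called. Markers of principal cells and connecting tubule, and of intercalated cells, summed to 107 to 151 and 165 to 230 CPM in wild-type libraries. In knockout they summed to 69.3 to 143 and 105 to 198 CPM, with 0 of 5 and 0 of 6 tested above 0 and 0 called. At an unadjusted p under 0.05, 3 of these 5, 3 of these 6 and 4 of the 9 endothelial markers were lower (3.57% of all genes). Of the 6 thick ascending limb markers, 3 were higher at that p (3.55% of all genes). The part of these markers in the members' values was not tested. The authors' deposited table listed 0 of 29 members with an adjusted p under 0.05 in distal tubule, and 3 of 7181 genes (0.0418%).

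**Figure D5:**
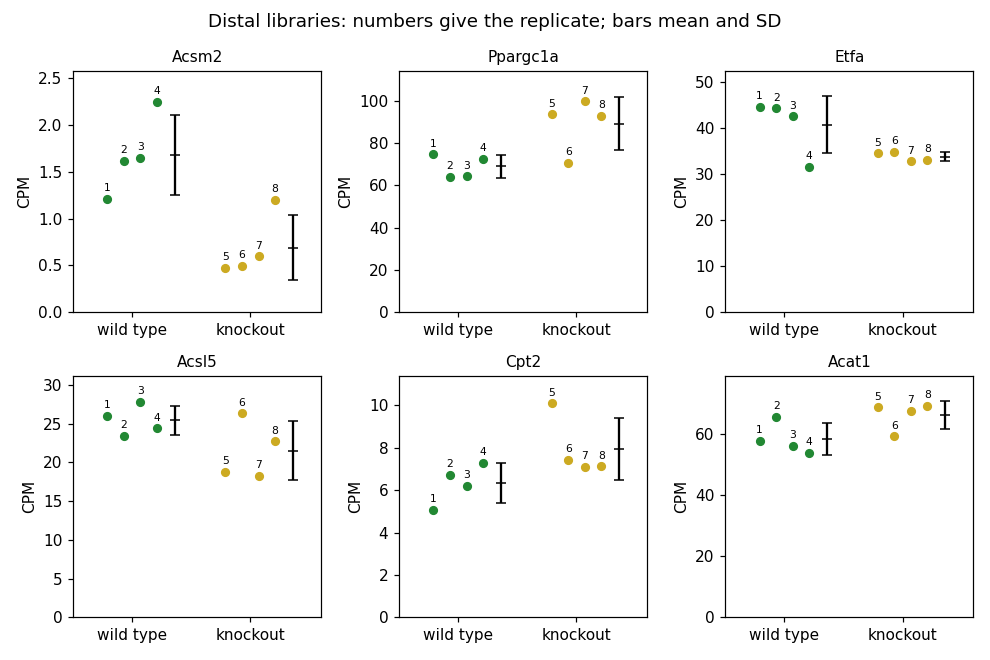
CPM of the 6 genes described in full for distal tubule, in each distal library (y axis from 0; numbers, replicates; bars, mean and SD), wild type (green, n = 4) and knockout (yellow, n = 4). Acsm2 is the one gene whose groups do not overlap, at 1.21 to 2.25 against 0.472 to 1.2 CPM.

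The difference between the 2 segments' genotype values was tested with the interaction term over all 15 libraries. None of 35 members passed, as 0% of all 15279 genes did. At an unadjusted p under 0.05 there were 7 members above 0 (3.16% of all genes) and 1 below (2.4% of all genes). A value above 0 means a larger difference of knockout minus wild type in proximal than in distal tubule. The 7 were Acsm2 (1.69 ± 0.42), Bdh1 (2.97 ± 0.89), Slc25a20 (0.98 ± 0.33), Acat1, Acsl5, Acadm and Acadl, and the 1 below was Ppargc1a (−0.68 ± 0.20). The Acsm2 value came mostly from distal tubule, with a log2 difference of −1.35 there against 0.32 in proximal tubule. Its distal libraries held only 0.472 to 2.25 CPM. Bdh1 had only 2 to 25 counts in the wild-type proximal libraries. Their adjusted p-values ran from 0.494 for Acsm2 upwards. Both genotype comparisons and this test share libraries, so they are not separate evidence.

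Other genes around the pathway were described from lists chosen alongside the members. In wild type, 23.6% of all genes were called higher and 25.1% lower in proximal than in distal tubule. Of 24 other mitochondrial acyl-CoA enzymes, 9 were higher and 5 lower. Among the higher were Gcdh, which breaks down glutaryl-CoA (2.10), and the carnitine transporter Slc22a5 (3.06). Acacb, which makes the malonyl-CoA that blocks the carnitine shuttle, was on the distal side, with 0 to 0.0189 CPM in proximal and 10.2 to 14.3 CPM in distal wild-type libraries. For ketone body formation and transport, 4 of 7 tested were higher and 2 lower. Slc16a7, a monocarboxylate transporter, had 319 to 364 CPM in distal and 0.166 to 0.546 CPM in proximal libraries, and Bdh2 14.3 to 15.4 CPM in proximal and 0 to 0.0258 CPM in distal ones.

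Of 14 PPAR alpha target genes outside the 36, 9 were tested and 9 were higher in wild-type proximal tubule. They included Ehhadh, an enzyme of peroxisomal oxidation (2.85), and the lipid droplet protein Plin2 (2.02). Of all genes, 23.6% were called higher there and 25.1% lower. A target counted almost only in proximal libraries passed the filter through them, which fixed its direction. Of 14 nuclear receptors, coactivators and related regulators, 6 were higher, among them Hnf4a (8.61) and Rxra (2.06). Another 2 were lower, among them the estrogen-related receptor Esrrb (−5.11). Of the 3 other pyruvate dehydrogenase kinases, Pdk2 was higher (1.09) and Pdk1 (−4.77) and Pdk3 (−0.99) were lower.

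Between genotypes in proximal tubule, limma called 0 genes of each of these 5 lists. At an unadjusted p under 0.05, 4.21% of all genes were higher in knockout and 3.17% lower. Of the PPAR alpha targets, 9 of 10 tested lay above 0 with a median log2 difference of 0.44, and 2 had an unadjusted p under 0.05, among them Ehhadh (0.85, adjusted p = 0.173). Ehhadh had 34.6 to 51.9 CPM in wild-type libraries and 56.3 to 90.4 CPM in the knockout ones. Of 23 acyl-CoA enzymes tested, 3 were higher and 2 lower at that p, led by Acsf2 (−1.28, adjusted p = 0.135). Of 7 genes of ketone body formation and transport, 1 was higher, the acetoacetyl-CoA synthetase Aacs (1.26, adjusted p = 0.219). Of 14 receptors, coactivators and related regulators, 1 was higher and 2 were lower, Rxra (−0.51) and Esrra (−0.65). None of the 3 kinases had such a p. In distal tubule limma called 0 genes of the 5 lists as well.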

How the data were processed

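RNA of pooled dissected tubules was extracted with the Rneasy Plus Micro kit and made into Nextera XT libraries, per the labels. The submitters' processing notes name CASAVA 1.8, STAR 2.5, DESeq2 1.24.0 and GRCm38. The program that counted the reads, its annotation and its strand setting: not given in the sources used here. The authors deposited 1 table of whole-number counts, called raw counts per the labels; its layout could not be read by the format check, so its unit was recorded as other and no count model was used. Log2 fold changes and p-values of the authors, deposited as 2 further tables, were used only where named.

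Symbols, positions and exon lengths came from GENCODE M21 (GRCm38). limma 3.58.1 in R 4.3.3 was run with voom on log2 CPM (prior count 0.5), with trimmed mean of M values scaling (30% of log ratios, 5% of intensities), on genes with about 10 counts in at least the number of libraries of the smaller group, and 15 in total. Each fit held the groups it compared, the interaction all 15 libraries. A gene was called at an adjusted p (Benjamini-Hochberg, over all genes) under 0.05; unadjusted p-values are from the same fits. CPM and RPKM use 1 scaling of all 15 libraries. The fits were tested on simulated counts. Replicate pairs had r of 0.959 to 0.982, and none was a copy.

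The members and lists were chosen with earlier results of these data known. Named in full by rule were the 3 members of smallest p in each direction of each genotype comparison, and the 6 largest and 4 smallest called log2 differences between wild-type segments; of other lists, up to 4 genes of smallest p. The values of 1 gene of these lists are not reported here. Alternatives tried were other scalings and filters, sample quality weights, limma-trend, 1 fit of all libraries, a looser threshold, a replicate block and leaving out libraries.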

Additional observations from a re-analysis of the deposited data

Results flagged for a closer look

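In groups of 4 libraries, a library was looked at again where its gap to the nearest other, divided by the group's range, was above Dixon's 95% critical value. Of 99 member and group combinations tested, 7 (7.07%) passed, and chance gives about 1 in 20. In knockout distal tubule Cpt2 had 10.1 CPM in replicate 5 (the others 7.09 to 7.44), Acads 6.8 CPM in replicate 8 (the others 3.57 to 4.08) and Acat1 59.4 CPM in replicate 6 (the others 67.7 to 69.4). In wild-type distal tubule Etfa had 31.5 CPM in replicate 4 (the others 42.5 to 44.5). In wild-type proximal tubule replicate 6 had 2.71 CPM of Acsl5 (the others 1.74 to 1.78) and 670 CPM of Acsm2 (the others 821 to 852), and replicate 3 had 0.701 CPM of Pdk4 (the others 0.364 to 0.394). Knockout proximal tubule, with 3 libraries, was not tested in this way.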

How the results depend on the processing

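In proximal tubule, the 0 members called between genotypes became 2 with no filter, 4 in 1 fit of all 15 libraries, 1 at an adjusted p under 0.1 and 1 without replicates 6 and 7, an alternative chosen after seeing the data; the cause was not tested. Over all genes that comparison called 22, and 25, 80, 36, 40 and 123 with protein-coding library sizes, no filter, the stricter filter, quality weights and 1 fit, 46 at the looser threshold and 2 to 18 with 1 library left out, the 2 without wild-type replicate 1. The interaction called 0 genes, 10 with limma-trend, and the distal comparison 0, or 4 with no filter. Leaving out 1 library gave 0 members called in each genotype comparison and the interaction, 25 to 30 between wild-type segments and 24 to 29 between knockout segments. No scaling moved the median of all genes by over 0.1. For the members named in full, 434 of the log2 differences under the alternatives stayed on their side of the threshold, 8 passed it newly and 0 changed sign. These counts include the looser threshold, which reuses the main fit unchanged. There Acsm3 passed in proximal tubule with its unchanged limma adjusted p of 0.0891. Libraries of the 2 segments share title numbers. With that replicate block, 29 members were called between wild-type and 14 between knockout segments (3238 of all genes instead of 5621). In knockout only the numbers 5 and 7 occur in both segments, so the block left little to estimate the spread. The fall in knockout calls therefore cannot show whether pairing matters. Deviations of same-numbered libraries had r of −0.0576 to 0.0487 in wild type and −0.265 and −0.133 in knockout. Not every library correlated best with its own number. Low values of r do not show that same-numbered libraries came from different animals. Whether they shared an animal was not tested. The count ratios between wild-type segments moved from 413 to 2390 for Acsm1 without distal replicate 2 and from 273 to 1920 for Acot12 without distal replicate 4, both added after seeing the data. Depth limits Cpt1b, Bdh1, Pdk4 and, in distal tubule, Acsm1, Acsm5 and Acot12.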
